A study of Rattus norvegicus with 16 samples.

Results

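In the rat sciatic nerve, the effect of crush at day 7 in immunopanned Schwann cells was set against the effect in whole nerve. For each gene the comparison asked whether the change from uncrushed to day 7 in Schwann cells was the same as the change over the same interval in whole nerve, so the quantity tested is a difference of 2 differences. It used 8 of the 16 libraries of the series, 2 from each of 4 groups, and the other 8 libraries, collected at days 3 and 5, helped to estimate the spread between libraries. Of 31038 genes in the files 16829 had enough counts to be tested, and 4414 of them had a day 7 effect that differed between the preparations at an adjusted p below 0.05, which is 26.2% of the genes tested.

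The 4 groups were Schwann cells from uncrushed nerves, Schwann cells 7 days after crush, whole nerve without crush and whole nerve 7 days after crush. All animals are labelled postnatal day 18, the age at which the sciatic nerve of 1 side was crushed, and no strain, genotype or transgene is given in the sources used here. The study took day 18 as its first time point and purification age, and no uncrushed group matched in age to day 7 is described in the sources used here, so crush and a week of age cannot be told apart. After crush the segment distal to the injury was taken, and from uncrushed animals the matching segment. Each sample was a pool of at least 10 nerves, and nothing states that the 2 samples of a group came from separate cohorts, so the p-values measure the spread between these pools. Schwann cells were released with collagenase and dispase and purified by immunopanning, in which dishes coated with antibodies to CD45 and Thy1 first removed leukocytes and fibroblasts and a dish with the O4 antibody then held the Schwann cells. Whole nerve went into RNA extraction without digestion or panning, so the cell type, the dissociation and the extraction kit cannot be told apart in any comparison of the 2 preparations. Totals of expected counts ran from 10555067 to 17850534 over the 8 libraries, and the 2 libraries of a group correlated at 0.971 to 0.983 on the log2 CPM scale.

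After a crush the axons beyond the injury degenerate, and Schwann cells shut down the myelin program, divide, break down myelin and take up a repair state in which they secrete trophic factors and guide regrowing axons. Blood-borne macrophages enter the nerve in the same week and clear debris. A whole nerve therefore mixes the RNA of Schwann cells with that of macrophages, fibroblasts, vessels and perineurium, and in such bulk samples fewer cells of a type and less RNA per cell cannot be told apart. Interferons act through the STAT and IRF transcription factors, whose target genes carry the interferon-stimulated response element (ISRE) or the gamma-activated site (GAS) in their promoters. Immediate-early genes such as Fos and Jun are switched on within minutes by injury, growth factors or cell stress.

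The labels were checked against markers, as summed FPKM (fragments scaled to gene length and library total). The 12 Schwann cell markers summed to 9506 and 9650 in uncrushed Schwann cells, 7021 and 6269 in Schwann cells at day 7, 18120 and 21620 in uncrushed whole nerve and 4413 and 4831 in whole nerve at day 7. The 13 macrophage and monocyte markers summed to 9.18 to 20.2 in the 4 Schwann cell libraries, 448 to 471 in uncrushed whole nerve and 1445 to 1536 in whole nerve at day 7. Among them Ms4a7 was listed at 0 in replicate 2 of both Schwann cell groups. The 14 fibroblast markers summed to 1461 to 1706 in uncrushed Schwann cells, 377 to 476 at day 7 in Schwann cells, 7141 to 7807 in uncrushed whole nerve and 8539 to 9169 at day 7 in whole nerve. Macrophage markers were thus low in the Schwann cell libraries at both times. Before crush the sum of Schwann cell markers was lower in purified Schwann cells than in whole nerve. The fibroblast sum was lower at day 7 than before crush in Schwann cells and higher in whole nerve. Without Col1a2, described below, Col1a1 and Col3a1 made up 90.6% to 95.1% of it in Schwann cells.

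Of the 4414 genes, 1961 (11.7% of those tested) had the higher effect in Schwann cells and 2453 (14.6%) the lower one. The share of higher effects among the called genes was 44.4%, and it became 55.5% when the TMM scaling was computed within each preparation and 23.2% when libraries were scaled to their totals alone. That last scaling moved the median difference of all genes from -0.07 to -0.33 on the log2 scale. Mitochondrial transcripts took 14.2% to 15.6% of the counts in uncrushed whole nerve and 2.9% to 8.83% in the other 6 libraries. The direction of small changes within a preparation depends on the scaling, and all values by library below are counts per library size on the TMM scale (CPM), the scale of the test. A pair of values gives replicate 1 and then replicate 2 of a group.

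In 525 genes the effects were opposite, meaning that the difference and both single effects passed the test and the 2 effects had opposite signs. Of these, 216 (1.28% of the genes tested) rose in Schwann cells and fell in whole nerve, and 309 (1.84%) fell in Schwann cells and rose in whole nerve. Both preparations rose in a further group, with 243 genes that rose more in Schwann cells and 140 that rose more in whole nerve. Both fell in 201 genes with the larger fall in Schwann cells and in 153 with the larger fall in whole nerve. The Schwann cell effect alone passed its own test in 1005 genes that rose and 1259 that fell, the whole nerve effect alone in 433 that rose and 288 that fell, and neither effect in 167 genes. The opposite classes kept 163 of their 216 and 239 of their 309 genes under each of 3 other scalings, and 83 and 223 when scaling to the library totals was added. Of the 96 opposite genes that the naming rule picked, 21 left their class under at least 1 of these 4 scalings, which is stated beside each such gene described below.

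**Figure D1:**
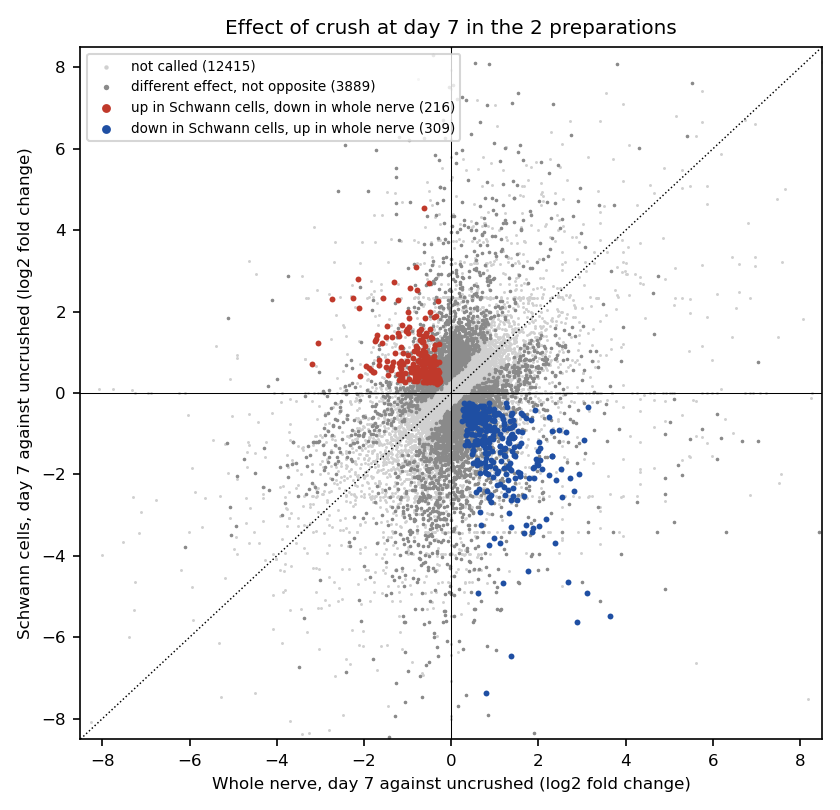
Log2 fold change from uncrushed to day 7 in whole nerve (horizontal axis) and in Schwann cells (vertical axis) for each gene tested, with the dotted line marking equal effects. The 216 genes in red lie at the upper left and the 309 genes in blue at the lower right, and 32 genes lie outside the axes, which end at 8.5.

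The genes that fell in Schwann cells and rose in whole nerve had a median difference of -1.95 on the log2 scale, made of a median effect of -1.01 in Schwann cells and 0.83 in whole nerve. The genes with the reverse pattern had a median difference of 1.44, with median effects of 0.65 in Schwann cells and -0.65 in whole nerve. Levels in the same libraries show where these genes stood before crush. The median gene of the first class stood at 1.21 log2 units, Schwann cells minus whole nerve, before crush and at -0.19 at day 7, and the median gene of the second class stood at -1.31 before crush and 0.10 at day 7. These levels come from the 8 libraries that chose the classes and are given as a description.

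Interferon response genes showed the most frequent opposite pattern of the function lists after the mitochondrial genes. Of 23 members tested, 17 had a lower effect in Schwann cells and 0 a higher one (14.6% and 11.7% of all genes). Of these, 10 fell in Schwann cells while they rose in whole nerve, as 1.84% of all genes did. The median difference of the list was -2.58 (-2.56 with the 1 gene below the count floor, 3 counts or fewer in both libraries of a group, set to its bound), against -0.07 over all genes. Among the 10 genes are the transcription factors Irf1, Irf8, Irf9 and Stat2, the antiviral effectors Ifit3 and Ifitm3, the proteasome subunit Psmb9, the deubiquitylase Usp18 and Ifi27, of which Usp18 left the opposite class under scaling within each preparation and under scaling to library totals.

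Of the 10 interferon genes 8 had a promoter in the RefSeq table, 3 of them with an ISRE and 4 with a GAS, and Psmb9 and Stat2 had neither. Promoter sequences of Cxcl10 and 3 of these genes are shown as examples because their ISRE (GAAA and again GAAA with any 2 bases between) or GAS (TTCNNNGAA) lies in the 250 bases before or the 50 bases after the start of transcription. They are RefSeq sequences of the build GRCr8, read 5′ to 3′ on the strand of the gene, with the matched motif in capitals and either strand of the motif allowed.
Irf1, chr10:38417685-38417984, plus strand, GAS from base -142: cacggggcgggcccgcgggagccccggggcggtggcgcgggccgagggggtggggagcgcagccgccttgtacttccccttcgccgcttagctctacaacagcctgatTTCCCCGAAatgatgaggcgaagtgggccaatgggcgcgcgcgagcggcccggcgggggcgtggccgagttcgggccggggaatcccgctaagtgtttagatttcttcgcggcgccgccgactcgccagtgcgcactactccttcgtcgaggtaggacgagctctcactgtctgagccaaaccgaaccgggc
Ifit3, chr1:241527076-241527375, plus strand, ISRE from base -44 on the other strand: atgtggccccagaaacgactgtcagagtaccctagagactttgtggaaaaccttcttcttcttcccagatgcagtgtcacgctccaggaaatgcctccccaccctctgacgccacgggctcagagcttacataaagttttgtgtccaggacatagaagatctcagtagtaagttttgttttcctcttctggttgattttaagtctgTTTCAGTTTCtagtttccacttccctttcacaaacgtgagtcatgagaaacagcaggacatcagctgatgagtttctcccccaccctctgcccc
Ifitm3, chr1:205541709-205542008, minus strand, ISRE from base -44 and GAS from base -33: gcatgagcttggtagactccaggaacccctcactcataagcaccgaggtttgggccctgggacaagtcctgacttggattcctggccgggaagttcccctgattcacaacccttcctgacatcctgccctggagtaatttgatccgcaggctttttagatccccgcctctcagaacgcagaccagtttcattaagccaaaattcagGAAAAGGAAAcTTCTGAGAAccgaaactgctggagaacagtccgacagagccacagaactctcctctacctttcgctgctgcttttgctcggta
Cxcl10, chr14:15988816-15989115, plus strand, ISRE from base -243: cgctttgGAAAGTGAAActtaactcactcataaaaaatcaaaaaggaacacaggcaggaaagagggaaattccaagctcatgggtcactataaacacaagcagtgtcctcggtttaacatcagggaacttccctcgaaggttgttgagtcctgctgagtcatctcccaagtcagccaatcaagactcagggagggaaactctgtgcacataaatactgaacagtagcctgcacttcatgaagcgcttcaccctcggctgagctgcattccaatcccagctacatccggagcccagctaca

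Irf1, the interferon-gamma induced activator, stood at 197 and 173 CPM in the 2 uncrushed Schwann cell libraries and 20.5 and 18.9 at day 7. In whole nerve its level was 7.42 and 6.35 before crush and 12.8 and 9.48 at day 7. Within each preparation the day 7 and uncrushed libraries did not overlap. The day 7 libraries lay below the uncrushed ones for Schwann cells and above them for whole nerve. At day 7 the Schwann cell values were still above those of whole nerve. The log2 difference was -3.91 ± 0.23 (SE; adjusted p = 2.77e-09, edgeR quasi-likelihood test). Its promoter carries the GAS shown above.

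Ifitm3, which blocks virus entry at endosomes, fell from 162 and 175 CPM to 24.8 and 19.3 in Schwann cells and rose from 258 and 207 to 391 and 343 in whole nerve. The difference was -3.58 ± 0.18 (adjusted p = 8.94e-10). Ifit3 was scarce in Schwann cells, at 3.44 and 1.75 CPM before and 0.904 and 0.761 at day 7, and stood at 5.31 and 2.77 before crush and 18.8 and 13.1 at day 7 in whole nerve (difference -3.58 ± 0.59, adjusted p = 2.28e-04). Irf9 and Stat2, subunits of the factor that binds the ISRE, differed by -2.56 ± 0.21 and -2.25 ± 0.22. Irf9 went from 54.8 and 48.4 to 19.7 and 21.1 CPM in Schwann cells and from 17.5 and 13.4 to 35.7 and 37 in whole nerve.

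Irf8, a factor of myeloid cells that also answers interferon, had the second largest difference among the genes that fell in Schwann cells and rose in whole nerve with no group at the count floor. It was read 57 and 22 times in uncrushed Schwann cells and 5 and 2 times at day 7, which is 3.92 and 1.75 before crush and 0.266 and 0.152 CPM at day 7. Whole nerve held 2.81 and 2.65 CPM before and 14.3 and 14.1 at day 7, and the difference was -6.05 ± 0.83 (adjusted p = 1.29e-04). Isg15, a ubiquitin-like modifier, and Oas1a, a sensor of double-stranded RNA, rose in whole nerve (3.27 and 3.90 log2), and their Schwann cell effects of 0.03 and 0.78 did not pass the test. The difference of Oas1a did not pass without uncrushed Schwann cell replicate 1 (-2.41, adjusted p = 0.0824, edgeR) and was -4.83 without uncrushed whole nerve replicate 1. Tap1, the peptide transporter of class I presentation, fell in Schwann cells from 24.9 and 19 to 4.25 and 3.73 CPM and had a whole nerve effect of 0.88 that did not pass.

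Over the classes, an ISRE was found in the promoters of 32 of 226 genes (14.2%) that fell in Schwann cells and rose in whole nerve and had a promoter in the RefSeq table, and of 3 of 150 (2.0%) with the reverse pattern. Among the 11233 genes tested with a promoter the share was 2.95%, and among all 27457 promoters 3.77%. A GAS was found in 11.5% and 4.0% of the 2 classes, 6.7% of tested genes and 8.68% of all promoters. The AP-1 motif TGANTCA was found in 8.41% and 7.33% against 5.14% and 7.33%, and the CRE motif TGACGTCA in 3.54% and 2.67% against 2.97% and 1.91%. These motifs were chosen after the values were seen, and a match describes letters in a window of 300 bases.

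Immediate-early and acute stress genes had lower effects in Schwann cells too. Of 33 members tested, 19 had a lower effect in Schwann cells and 0 a higher one (14.6% and 11.7% of all genes). The median difference was -1.48. Opposite effects, down in Schwann cells and up in whole nerve, were found in 8 members and in 1.84% of all genes. Within the preparations 24 members fell in Schwann cells and 1 rose, while 11 rose in whole nerve and 3 fell. Over all genes tested, 21.3% fell and 22.8% rose in Schwann cells, and 16.9% rose and 10.8% fell in whole nerve. The 8 opposite genes are Fos, Jun, Junb, Egr3, Atf3, Myc, Ier5 and Socs3, of which Myc left the class under scaling within each preparation.

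Fos, the leucine zipper partner of Jun in the AP-1 factor, was at 1262 and 1352 CPM in uncrushed Schwann cells, 411 and 419 at day 7, 4.22 and 3.46 in uncrushed whole nerve and 13 and 19.2 in whole nerve at day 7. All 4 Schwann cell libraries were above all 4 whole nerve libraries, and crush moved the preparations toward each other. The difference was -3.70 ± 0.23 (adjusted p = 7.57e-09). Jun, a regulator of the repair state of Schwann cells, stood at 1074 and 1190 CPM before and 715 and 762 at day 7 in Schwann cells, against 36.4 and 33.2 before crush and 100.4 and 129 at day 7 in whole nerve, with a difference of -2.33 ± 0.16 (adjusted p = 1.29e-08).

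Socs3, the feedback inhibitor of cytokine receptors that signal through STAT3, fell from 349 and 399 to 132 and 122 CPM in Schwann cells and rose from 1.95 and 2.65 to 11.1 and 11.2 in whole nerve. Atf3, a stress-induced factor of injured neurons and Schwann cells, had levels of 684 and 688 before crush and 355 and 377 CPM at day 7 in Schwann cells and 6.95 and 11.8 before crush and 43.6 and 57.1 at day 7 in whole nerve. Their differences were -3.86 ± 0.27 and -3.37 ± 0.27. Zfp36, which destabilises cytokine mRNA, and Btg2, an inhibitor of division, fell in Schwann cells by 2.40 and 2.94 log2 units, with whole nerve effects of 0.22 and -0.18 that did not pass. These genes were high in Schwann cells before crush, and those cells alone had been digested and panned, so the procedure and the preparation cannot be told apart. Dissociated sciatic nerve, which the study also profiled to follow the dissociation, was not analysed here.

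**Figure D2:**
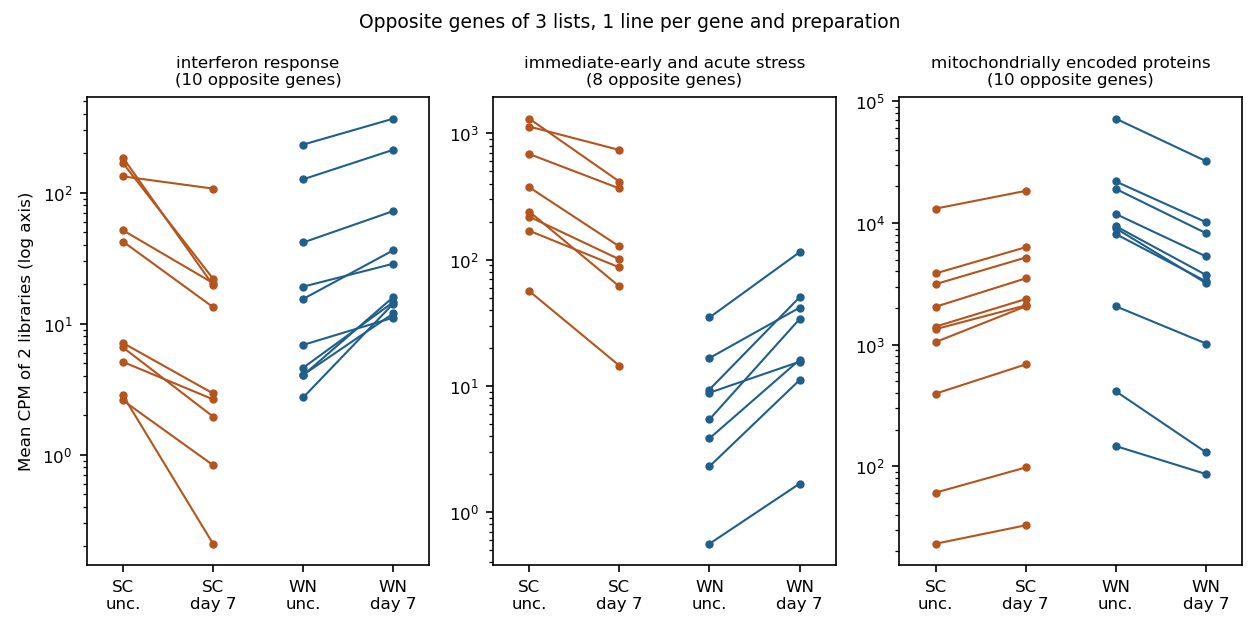
Mean CPM (log axis) of the opposite genes of 3 lists in uncrushed and day 7 Schwann cells (SC) and whole nerve (WN), with 1 line for each gene and preparation. The 10 interferon and 8 immediate-early genes fell in Schwann cells and rose in whole nerve, while the 10 mitochondrial genes did the reverse, and 2 of the interferon genes, Usp18 included, and Myc left the class under at least 1 other scaling.

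Osmr, Il6st and Stat3, which carry the signal of interleukin 6 type cytokines, were opposite in the same sense as Socs3. Osmr, the receptor subunit for oncostatin M, was at 33.5 and 29.9 CPM in uncrushed Schwann cells and 3.62 and 3.8 at day 7, and at 18.3 and 19 before crush and 68.8 and 100.3 at day 7 in whole nerve. The difference was -5.28 ± 0.27 (adjusted p = 1.16e-09, edgeR), and the separation of day 7 from uncrushed libraries was a condition of naming this gene. Il6st, the shared signal chain gp130, fell from 1189 and 986 to 804 and 731 and rose from 467 and 518 to 829 and 849.5 CPM. Stat3, the factor activated by gp130, differed by -1.64 ± 0.17, with 382 and 337 before crush and 244 and 209 CPM at day 7 in Schwann cells and 64.9 and 56.5 before crush and 108 and 132 at day 7 in whole nerve. Cp, the copper-carrying ferroxidase ceruloplasmin, fell from 175 and 173 to 15.9 and 16.1 CPM and rose from 100.02 and 117 to 367 and 325, the difference with the lowest adjusted p among these genes (-5.11 ± 0.15, adjusted p = 9.75e-13). Gfap, the intermediate filament of glia, had 234 and 232 CPM in uncrushed Schwann cells and 44.9 and 41.6 at day 7, against 14.1 and 13.4 before crush and 22.2 and 18.4 at day 7 in whole nerve (difference -2.99 ± 0.20, adjusted p = 1.59e-08).

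**Figure D3:**
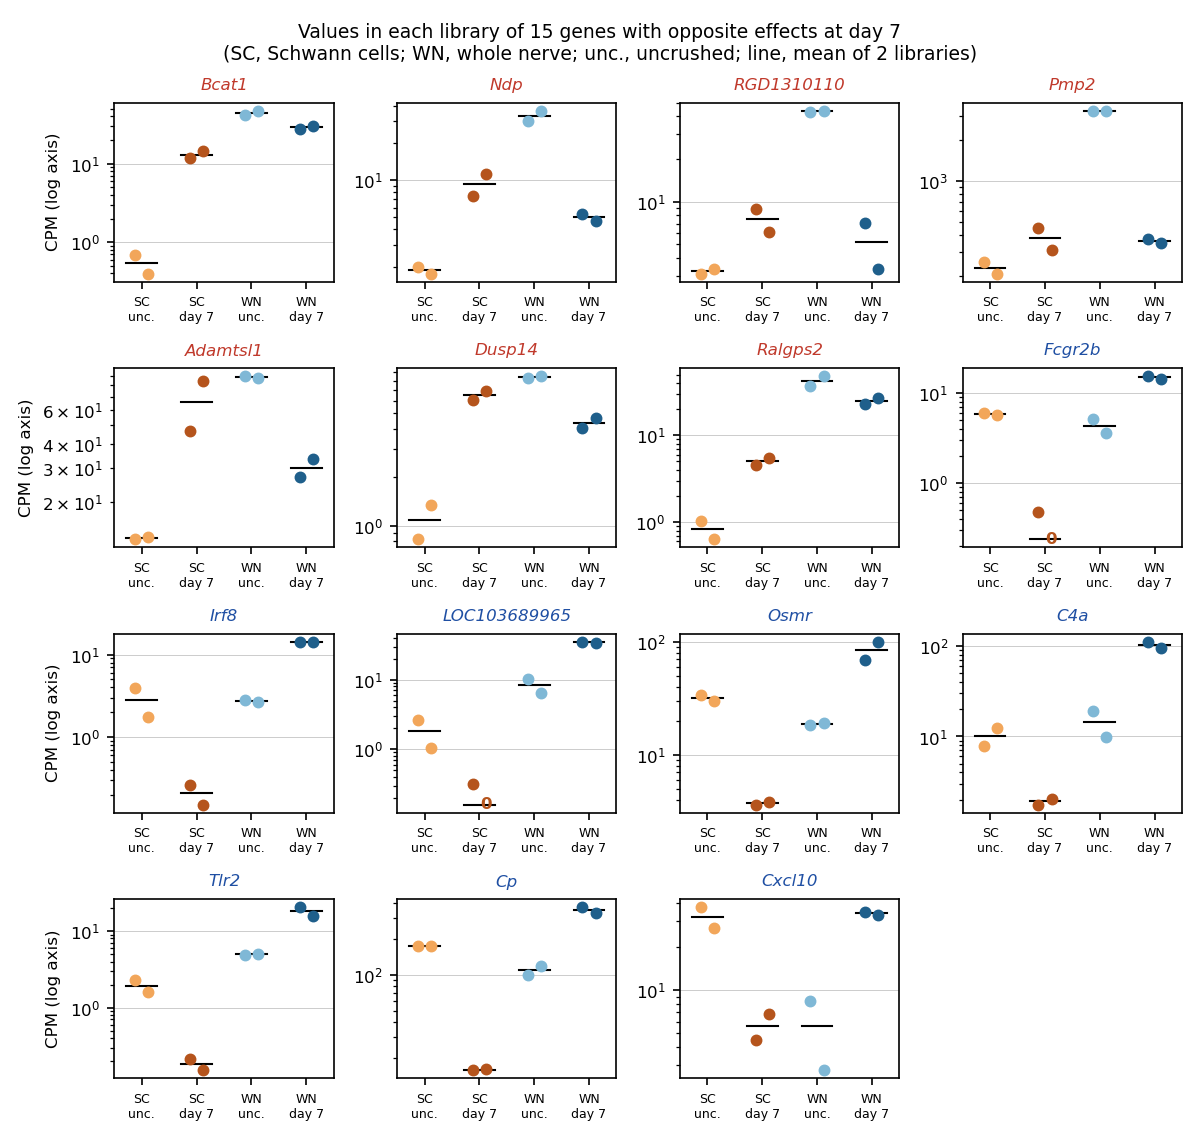
CPM (log axis) in each library of 15 opposite genes that the naming rule took by size of the difference, among those with a mean FPKM of at least 5 in a group, no group at the count floor and separated libraries in each preparation, red titles for genes up in Schwann cells and blue for genes down in Schwann cells, with lines for group means and a 0 where a library had no count. The separation of day 7 from uncrushed libraries was a condition of the choice, and Bcat1 leaves its class when libraries are scaled to their totals.

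Fcgr2b and Tlr2, both receptors of immune cells, were opposite as well. Fcgr2b, the inhibitory receptor for IgG, was read 87 and 72 times in uncrushed Schwann cells and 9 and 0 times at day 7. On the CPM scale that is 5.99 and 5.73 before crush and 0.479 and 0 at day 7, against 5.08 and 3.58 before crush and 15.3 and 14.4 at day 7 in whole nerve, a difference of -6.12 ± 0.73 (adjusted p = 4.17e-05). Tlr2, a sensor of bacterial lipoproteins and tissue debris, had 4 and 2 counts at day 7 in Schwann cells and rose from 4.92 and 5.08 to 20.6 and 15.9 CPM in whole nerve (difference -5.19 ± 1.00, adjusted p = 0.00288). The Schwann cell arm of both genes thus rests on few counts at day 7, and the difference of Fcgr2b was -11.33 without day 7 Schwann cell replicate 1, where the remaining library had 0 counts, and -5.35 without replicate 2.

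Of 19 complement genes tested, 8 had a lower effect in Schwann cells and 0 a higher one (14.6% and 11.7% of all genes). Opposite effects, down in Schwann cells and up in whole nerve, were found in 6 members and in 1.84% of all genes. The median difference was -0.69 (-0.74 with the genes below the floor at their bounds). C4a, the thioester component of the classical pathway, went from 7.84 and 12.4 to 1.76 and 2.05 CPM in Schwann cells and from 19.1 and 9.81 to 112 and 94.6 in whole nerve, a difference of -5.22 ± 0.47. C4b is a near copy, so reads can be divided between them, and both differed in the same direction (-3.75 ± 0.53 for C4b). C1r and C1s, the proteases of the first component, rose in whole nerve from 168 and 207 to 364 and 356 and from 275 and 309 to 1020 and 804 CPM. In Schwann cells C1r fell from 73.3 and 66.2 to 27.9 and 24.2 and C1s from 12.2 and 12 to 8.62 and 7.83. Serping1, their inhibitor, and properdin (Cfp) made up the 6, with differences of -3.60 ± 0.50 and -3.38 ± 0.35. LOC103689965, for which the gene table has no record, was opposite too, at 2.61 and 1.03 before crush and 0.319 and 0 CPM at day 7 in Schwann cells and 10.4 and 6.46 before crush and 35.2 and 34.2 at day 7 in whole nerve. Its difference of -5.29 ± 0.87 became -9.94 without day 7 Schwann cell replicate 1, which left a library with 0 counts.

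Of 33 chemokine, cytokine and receptor genes, 10 had a lower effect in Schwann cells and 1 a higher one (14.6% and 11.7% of all genes). Opposite effects, down in Schwann cells and up in whole nerve, were found in 6 members and in 1.84% of all genes. The list median was -1.17, or -1.54 with its 14 genes below the floor at their bounds. Ccl2, the attractant of monocytes, was at 293 and 271 CPM in uncrushed Schwann cells and 59.8 and 83.3 at day 7, and at 9.14 and 11.7 before crush and 89.5 and 68.2 at day 7 in whole nerve, so the day 7 values overlapped (difference -4.92 ± 0.42, adjusted p = 1.45e-05). Cxcl10, an interferon-induced attractant of T cells whose promoter holds the ISRE above, had 37.7 and 27.1 before crush and 4.52 and 6.77 CPM at day 7 in Schwann cells and 8.43 and 2.77 before crush and 35.1 and 33 at day 7 in whole nerve (difference -5.08 ± 0.46). Ifngr1, the ligand-binding chain of the interferon-gamma receptor, Il1r1, the interleukin 1 receptor, and Cxcl16 differed by -1.66 ± 0.14, -3.75 ± 0.34 and -2.50 ± 0.38. Cxcl1, a neutrophil attractant, fell from 408 and 406 to 17.8 and 22.9 CPM in Schwann cells, and in whole nerve it had 0.234 and 0.346 before crush and 0.44 and 0.438 at day 7, at or below 3 counts per library before crush. The exception with a higher effect in Schwann cells was interleukin 18 (Il18), which stood at 3 counts or fewer in uncrushed Schwann cells and whose difference did not pass without uncrushed Schwann cell replicate 1 (adjusted p = 0.0842, edgeR).

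Among 21 phagocytic receptors and bridging molecules, 9 had a lower effect in Schwann cells and 1 a higher one (14.6% and 11.7% of all genes). Their median was -1.08, or -1.13 with floor genes at their bounds. The bridging ligand Gas6 fell from 10.3 and 9.47 to 6.22 and 7.53 CPM in Schwann cells and rose from 73.4 and 79.6 to 160.4 and 147 in whole nerve, and the scavenger receptor Lrp1 differed by -0.80 ± 0.12. Pros1, the other ligand of the same receptors, was opposite, but its rise of 0.34 in whole nerve did not pass under the 3 other scalings that use normalization factors. Mertk, a receptor that Gas6 activates and that takes up myelin and dead cells, was the 1 member with the higher effect: it rose from 13.2 and 11.9 to 59.4 and 73.3 CPM in Schwann cells, and in whole nerve its values were 19.4 and 20.8 before crush and 21.9 and 33.9 at day 7 (difference 1.92 ± 0.25, adjusted p = 2.21e-05). Cd68, a lysosomal protein of macrophages, was the 1 of 13 macrophage markers called different, at -2.26 ± 0.42, and the count of lower effects was 2 with DESeq2, 2 without day 7 Schwann cell replicate 1, 3 in the fit of the 8 libraries and 6 with no filter on low counts. Of those 13, 6 rose in whole nerve (16.9% of all genes) and 0 passed the test in Schwann cells (22.8% up and 21.3% down over all genes), where the sum of the 13 stayed between 9.18 and 20.2 FPKM; their part in the immune results was not tested. In MHC class II presentation, 10 of 11 genes rose in whole nerve (16.9% of all genes) and 2 in Schwann cells (22.8% of all genes), but 1 gene, RT1-Db1, passed the test of the difference (-2.62 ± 0.60, and not without uncrushed Schwann cell replicate 1, adjusted p = 0.166; list median -0.89, or -1.81 with floor genes at their bounds).

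The reverse pattern, up in Schwann cells and down in whole nerve, was led by Bcat1, the cytosolic enzyme that transaminates branched-chain amino acids. It rose from 0.688 and 0.398 to 11.8 and 14.3 CPM in Schwann cells and fell from 41.6 and 47.2 to 27.5 and 30.4 in whole nerve, a difference of 5.15 ± 0.33 (adjusted p = 7.40e-09), and its fall in whole nerve did not pass when libraries were scaled to their totals. Ndp, the secreted Wnt-type ligand norrin, stood at 2 and 1.75 before crush and 7.45 and 11.3 CPM at day 7 in Schwann cells and 29.9 and 36.6 before crush and 5.36 and 4.67 at day 7 in whole nerve (difference 5.02 ± 0.35). RGD1310110, whose current symbol is Armh4, differed by 4.29 ± 0.44. Adamtsl1, a matrix protein related to the ADAMTS proteases, went from 12.9 and 13.1 to 46.3 and 84.8 CPM in Schwann cells and from 89.3 and 87.6 to 26.9 and 33.3 in whole nerve. The MAP kinase phosphatase Dusp14 and the Ral exchange factor Ralgps2 had differences of 3.53 ± 0.37 and 3.31 ± 0.31.

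A pair of Schwann cell proteins belonged to this class. Pmp2, the fatty acid carrier of peripheral myelin, was at 253 and 208 CPM in uncrushed Schwann cells and 446 and 311 at day 7, while in whole nerve it fell from 3245 and 3262 to 371 and 346 (difference 3.90 ± 0.19, adjusted p = 6.81e-10). Uncrushed whole nerve stood far above the other 3 groups, and the day 7 values of the preparations overlapped. S100b, the calcium-binding protein used to stain Schwann cells, rose from 666 and 559 to 1983 and 1788 CPM and fell from 3118 and 2794 to 1486 and 1530 in whole nerve (difference 2.59 ± 0.17). Spp1, the matricellular protein osteopontin, followed with 18.6 and 12.7 before crush and 41.1 and 37.5 CPM at day 7 in Schwann cells against 85.8 and 94.4 before crush and 28.7 and 25.9 at day 7 in whole nerve (difference 3.04 ± 0.22).

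Transcripts of the mitochondrial genome had the most frequent opposite pattern of any list. Of 13 protein genes, 12 had a higher effect in Schwann cells and 0 a lower one (11.7% and 14.6% of all genes). Of the 12, 10 rose in Schwann cells and fell in whole nerve, as 1.28% of all genes did. The median difference of the list was 1.83. In whole nerve 13 of 13 fell, against 10.8% of all genes, and in Schwann cells 10 of 13 rose, against 22.8%. COX1, a catalytic subunit of cytochrome oxidase, went from 12457 and 13789 to 17310 and 19440 CPM in Schwann cells and from 75670 and 68568 to 30483 and 34077 in whole nerve (difference 1.65 ± 0.18, adjusted p = 3.79e-06). The complex I subunits ND2, ND4 and ND6 differed by 2.14 ± 0.16, 1.93 ± 0.18 and 2.35 ± 0.18. Uncrushed whole nerve was the highest group for each of the 10 genes, and the 10 kept their class under the 4 other scalings. Genes of the respiratory chain and citrate cycle encoded in the nucleus gave 14 of 29 higher and 0 lower effects (11.7% and 14.6% of all genes). Their median was 0.44, with 0 opposite genes. Cox5b and Ndufa4, subunits of cytochrome oxidase, rose in Schwann cells by 1.35 and 1.22 log2 units, with whole nerve effects of 0.23 and 0.14 that did not pass.

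Glycolysis gave 10 of 22 higher and 3 lower effects (11.7% and 14.6% of all genes, list median 0.55). The 4 opposite members rose in Schwann cells and fell in whole nerve, as 1.28% of all genes did. Gapdh rose from 201 and 228 to 420.3 and 495 CPM in Schwann cells and fell from 657 and 796 to 416 and 427 in whole nerve (difference 1.88 ± 0.21), although many copies of this gene exist in the genome and its count is uncertain. Ldhb, Gpi and Tpi1, which interconvert lactate and pyruvate, hexose phosphates and triose phosphates, were the other 3, and their falls in whole nerve of -0.53, -0.38 and -0.60 did not pass when libraries were scaled to their totals. The rise of Tpi1 in Schwann cells did not pass under RLE scaling.

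Fatty acid and myelin lipid synthesis split, with 9 of 22 effects higher and 5 lower in Schwann cells (11.7% and 14.6% of all genes). The list median was 0.48. Scd2, the desaturase of Schwann cells and brain, rose from 5491 and 6134 to 9164 and 8492 CPM and fell in whole nerve from 18474 and 17839 to 4875 and 5019 (difference 2.48 ± 0.14). Fasn, the fatty acid synthase, did the reverse, from 183 and 192 to 103 and 97.5 CPM in Schwann cells and from 166 and 194 to 239 and 340.4 in whole nerve (difference -1.59 ± 0.25). Scd, the desaturase of fat tissue, fell in Schwann cells (-1.33) and its whole nerve effect of 0.87 did not pass. The 12 markers of fat, muscle and red blood cells summed to 11.4 to 89.1 FPKM in the Schwann cell libraries and 2456 to 3986 in whole nerve.

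Myelin genes fell in both preparations and by different amounts. Of 20 structural myelin genes, 15 fell in Schwann cells and 16 in whole nerve (21.3% and 10.8% of all genes). A higher effect in Schwann cells, that is a smaller fall or a rise, was called in 13, and a lower one in 1. Over all genes these shares were 11.7% and 14.6%. The median difference was 1.13. Mbp, the basic protein that compacts myelin, fell from 2814 and 3196 to 1381 and 1070 CPM in Schwann cells and from 12203 and 13044 to 1306 and 1276 in whole nerve (effects -1.29 and -3.29, difference 2.00 ± 0.16, adjusted p = 1.05e-07). Uncrushed whole nerve stood above the other 3 groups, and at day 7 the preparations overlapped. The enzymes of galactolipid synthesis Ugt8 and Fa2h differed by 2.02 ± 0.14 and 1.84 ± 0.28. Gjb1, the gap junction protein of the myelin sheath, fell in whole nerve from 20.6 and 21.8 to 3.38 and 4.01 CPM and showed 5.09 and 7.32 before crush and 5.58 and 5.25 at day 7 in Schwann cells.

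All 22 genes of cholesterol synthesis fell in both preparations (21.3% of all genes in Schwann cells and 10.8% in whole nerve). The fall in Schwann cells was smaller in 10 and larger in 2, with a median difference of 0.62. Over all genes 11.7% of effects were higher in Schwann cells and 14.6% lower. Hmgcs1, which makes the precursor of mevalonate, fell from 2609 and 2403 to 383 and 386 CPM in Schwann cells and from 3978 and 4053 to 277 and 296 in whole nerve. Insig1, the sterol sensor that holds back synthesis, was among those that fell more in Schwann cells (-1.73 ± 0.20).

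Cell division genes rose in both preparations, 28 of 32 in Schwann cells and 31 of 32 in whole nerve (22.8% and 16.9% of all genes). Of the 32, 18 had a lower effect in Schwann cells and 0 a higher one (14.6% and 11.7% of all genes). The median difference was -0.72. Mki67, a marker of cycling cells, was at 379 and 372 CPM in uncrushed Schwann cells and 532 and 589 at day 7, and at 76.4 and 69.9 before crush and 222 and 251 at day 7 in whole nerve (difference -1.11 ± 0.15). Each of the 4 Schwann cell libraries was above each whole nerve library. Top2a, which untangles chromosomes, differed by -1.47 ± 0.17. Cdkn1a, the cell cycle inhibitor p21, was the opposite member, at 44.3 and 53.9 before crush and 11.6 and 22.8 CPM at day 7 in Schwann cells and 7.89 and 6.69 before crush and 16.2 and 17.9 at day 7 in whole nerve.

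Transcription factors of the Schwann lineage and of repair gave 2 higher and 7 lower effects among 19 tested (11.7% and 14.6% of all genes). Their median was -0.30, or -0.24 with floor genes at their bounds, and Jun, Atf3 and Stat3 were opposite. Sox2 and Pou3f1, factors of immature and promyelinating Schwann cells, rose in both preparations and more in whole nerve. Sox2 went from 53.2 and 40.6 to 84.8 and 107 CPM in Schwann cells and from 2.03 and 3.12 to 20.1 and 30 in whole nerve (difference -2.30 ± 0.35). Etv5, a target of growth factor signals, rose in Schwann cells by 1.71 log2 units and had a whole nerve effect of 0.18.

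**Figure D4:**
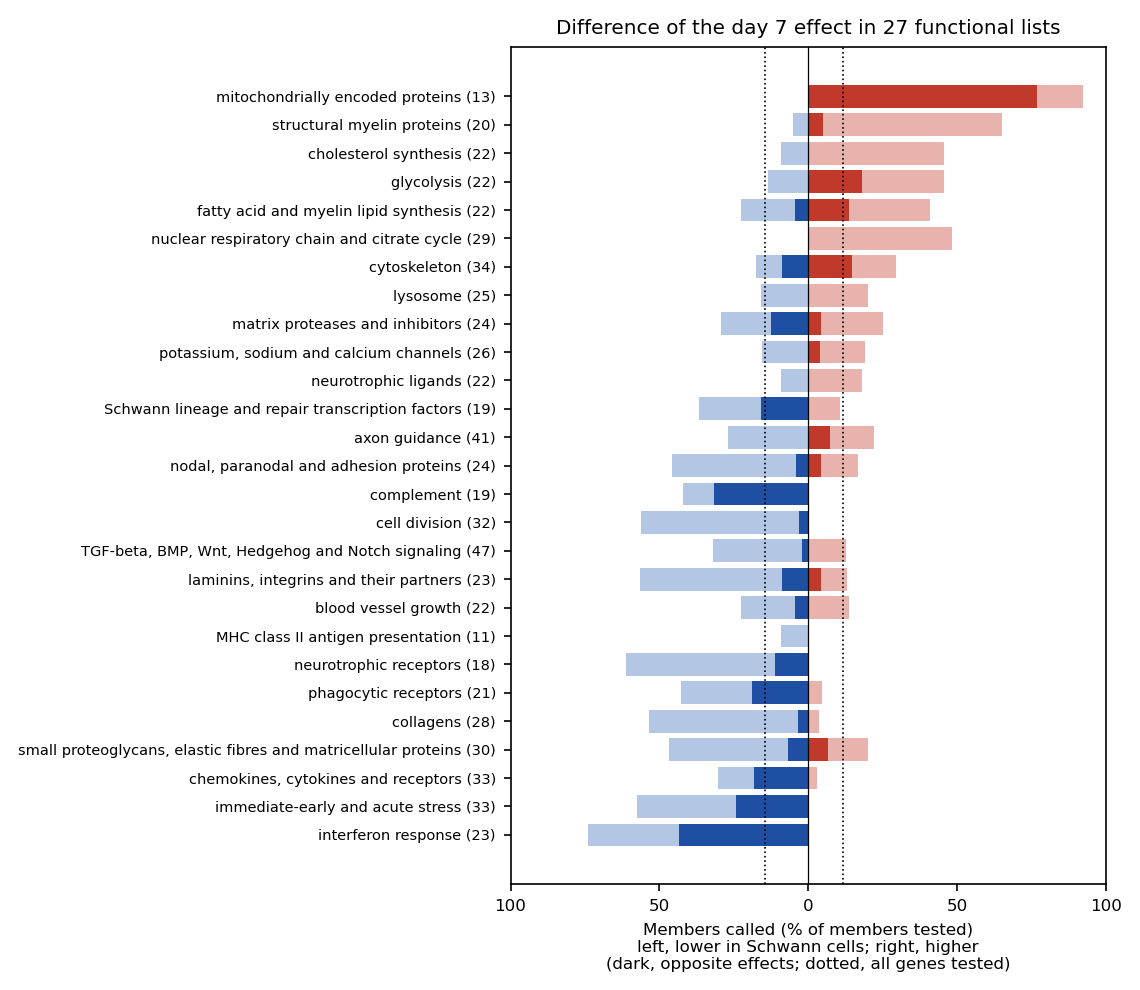
Share of the tested members of 27 function lists whose day 7 effect was called lower (left) or higher (right) in Schwann cells, with the opposite genes in the dark part of each bar and the number tested beside the list's name. Dotted lines mark the shares over all genes, 14.6% and 11.7%, and the medians of neurotrophic ligands, matrix proteases, lysosome and channels change sign with the scaling.

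Among 22 neurotrophic ligands 4 effects were higher and 2 lower (11.7% and 14.6% of all genes). Their median of -0.03 ranged from -0.29 to 0.08 over scalings and became 0.27 with the 8 floor genes at their bounds. Cntf, the survival factor stored by myelinating Schwann cells, fell from 29.4 and 24.2 to 11.5 and 11.5 CPM in Schwann cells and from 228 and 247 to 7.05 and 6.49 in whole nerve (difference 3.91 ± 0.19, adjusted p = 6.71e-10). Mdk, the growth factor midkine, rose from 1.79 and 2.15 to 29.5 and 27.2 CPM in Schwann cells and from 20.4 and 27.5 to 39.3 and 51.5 in whole nerve. Edn3, endothelin 3, had 0 counts in both uncrushed Schwann cell libraries and 120 and 92 at day 7, and Bdnf had 0 counts in both uncrushed whole nerve libraries and 81 and 58 at day 7, so no fold is given for either.

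Among 18 receptors for such factors 11 effects were lower in Schwann cells and 0 higher (14.6% and 11.7% of all genes, list median -0.97). Ntrk2, the receptor of BDNF, fell from 742 and 625 to 33.1 and 36.2 CPM in Schwann cells and from 180.1 and 215 to 83.8 and 95.7 in whole nerve (difference -3.17 ± 0.21). Gfra2, the receptor of neurturin, and Ntrk3, the receptor of neurotrophin 3, fell in Schwann cells by 3.34 and 2.07 log2 units, with whole nerve effects of 0.06 and 0.07 that did not pass. Ntrk3 stood at 269.7 and 209.5 before crush and 57.8 and 56.1 CPM at day 7 in Schwann cells and 21.7 and 31.4 before crush and 27.7 and 27.4 at day 7 in whole nerve.

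Genes outside the opposite classes reached the same sizes. Aldh1a2, which makes retinoic acid, was read 4 and 0 times in uncrushed Schwann cells and stood at 26.2 and 25.2 CPM at day 7, while whole nerve rose from 7.42 and 5.42 to 18.2 and 19.4 (difference 5.85 ± 0.47, adjusted p = 1.01e-07). Angpt1, the ligand of the endothelial receptor Tek, went from 7 and 0 counts to 360 and 243 in Schwann cells and from 15.8 and 11.3 to 26.6 and 26.9 CPM in whole nerve (difference 5.18 ± 0.49). With few counts before crush, both values rest on single libraries: without uncrushed Schwann cell replicate 1, which left a library with 0 counts, the fitted difference was 10.19 for Aldh1a2 and 10.30 for Angpt1, and without replicate 2 it was 4.98 and 4.29. The Wnt receptor Fzd6 rose from 0.826 and 0.716 to 20 and 20.5 CPM in Schwann cells and had 20.7 and 15.3 before crush and 23.1 and 19.8 at day 7 in whole nerve (difference 4.45 ± 0.28). Tub, the tubby protein of ciliary traffic, and LOC103689954, for which the gene table has no record, differed by 4.79 ± 0.37 and 4.59 ± 0.28.

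In the other direction stood the transporters Abca8, Abca8a and Abca9, which are similar copies whose reads can be divided between them. Abca8a fell from 2653 and 2647 to 51 and 58.1 CPM in Schwann cells and had 403 and 511 before crush and 423 and 414 at day 7 in whole nerve (difference -5.48 ± 0.31, adjusted p = 1.48e-07). Abca9 fell from 117 and 139 to 3.4 and 2.74 CPM, against 128 and 159 before crush and 129 and 129 at day 7 in whole nerve. Mfap5, a glycoprotein of elastic microfibrils, went from 66 and 82.8 to 2.13 and 1.37 CPM in Schwann cells, with 185 and 185 before crush and 179 and 148 at day 7 in whole nerve. Apoc1, a protein of lipoprotein particles, rose in whole nerve from 0.234 and 0.923 to 17.2 and 17.1 CPM, and its Schwann cell values were 2.27 and 1.99 before crush and 1.17 and 1.45 at day 7 (difference -5.73 ± 0.70).

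Matrix genes were a further group with lower effects. Of 28 collagens 15 had a lower effect in Schwann cells and 1 a higher one (14.6% and 11.7% of all genes, list median -1.10). Col11a1, a fibrillar collagen, fell from 161 and 172 to 6.65 and 5.78 CPM in Schwann cells and stood at 179 and 239 before crush and 184 and 223 at day 7 in whole nerve (difference -4.69 ± 0.22, adjusted p = 6.92e-10). Col6a3, a chain of the beaded collagen VI, fell in both, from 661 and 605 to 55.9 and 59.2 and from 337 and 365 to 240.2 and 265 CPM. Col16a1 was the opposite collagen, and it left the class under scaling within each preparation. Of 23 laminins, integrins and partners 13 effects were lower and 3 higher (14.6% and 11.7% of all genes, list median -0.77). Lamc1, the gamma chain of the laminins of the basal lamina, fell in Schwann cells from 2616 and 2508 to 904 and 824 CPM. There Itga3, a laminin receptor, rose by 2.76 log2 units. Of 30 small proteoglycans, elastic fibre and matricellular genes 14 effects were lower and 6 higher (14.6% and 11.7% of all genes). Their median was -1.15, or -1.12 with floor genes at their bounds. Sparcl1, the matricellular protein hevin, fell from 2140 and 1915 to 85.6 and 49.6 CPM in Schwann cells and from 372 and 454 to 159.8 and 157 in whole nerve.

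The fibroblast markers are in part matrix genes themselves. Col1a1, Col1a2 and Col3a1 are collagens, and Mfap5 is in the list with the elastic fibre genes. The marker sum was 1461 to 1706 FPKM before crush and 377 to 476 at day 7 in Schwann cells. Of the 14 markers, 3 had a lower effect there (Col3a1, Mfap5 and Fn1) against 0 higher. The lower count was 5 with DESeq2, 6 in the fit of the 8 libraries and 10 with no filter on low counts, and the share over all genes was 14.6%. Without Col1a2, left out after its values were seen, whose counts did not repeat between replicates and which is also 1 of the 28 collagens, the sum was 1448 to 1457 FPKM before crush and 349 to 353 at day 7 in Schwann cells and 7141 to 8876 in whole nerve. Col1a1 and Col3a1 made up 90.6% to 95.1% of it in Schwann cells and 40.6% to 53.7% in whole nerve. Col3a1 was at 1023 and 1015 FPKM before crush and 125 and 89.3 at day 7 in Schwann cells, and Dcn, a proteoglycan of fibroblasts, at 16.9 and 7.92 and then 6.56 and 4.51. What part fibroblast RNA has in the matrix results was not tested. Matrix proteases and inhibitors were even, with 6 higher and 7 lower of 24 (11.7% and 14.6% of all genes). Their median of 0.02 ranged from -0.24 to 0.13 over scalings. Serpine2, an inhibitor of thrombin, rose from 37.1 and 51.5 to 308 and 363 CPM in Schwann cells, and Plau, the urokinase protease, fell from 3.58 and 3.82 to 0.904 and 0.837 while it rose from 8.43 and 6.69 to 13.9 and 15.5 in whole nerve.

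Adhesion and guidance genes were mixed. Nodal, paranodal and adhesion proteins gave 4 higher and 11 lower effects of 24 (11.7% and 14.6% of all genes, list median -0.67). Chl1 and Nrcam, both L1-type adhesion molecules, were opposite in opposite senses, with Chl1 at 1251 and 1069 before crush and 704 and 701 CPM at day 7 in Schwann cells and 88.8 and 110.1 before crush and 200.5 and 256 at day 7 in whole nerve, and Nrcam at 92.9 and 90.9 before crush and 142 and 141 at day 7 against 84.1 and 102 before crush and 52 and 51.4 at day 7. L1cam and Ncam1, which mark nonmyelinating Schwann cells, fell in Schwann cells by 1.85 and 2.02 log2 units, and their whole nerve effects of 0.44 and -0.23 did not pass. Of 41 axon guidance genes 9 effects were higher and 11 lower (11.7% and 14.6% of all genes, list median -0.39). The repellent Sema3a rose from 0.619 and 0.477 to 2.07 and 3.5 CPM in Schwann cells and fell from 18.4 and 13 to 6.24 and 7.29 in whole nerve (difference 3.51 ± 0.44), and Slit2, another repellent, rose from 72.6 and 74 to 213 and 225 in Schwann cells, with a fall of -0.50 log2 in whole nerve that did not pass under scaling to totals. Sema3f fell in Schwann cells from 4.88 and 4.14 to 0.266 and 0.228 CPM.

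Among 26 potassium, sodium and calcium channels 5 effects were higher and 4 lower (11.7% and 14.6% of all genes). Their median of 0.01 ranged from -0.25 to 0.12 over scalings. Scn7a, a sodium channel of nonmyelinating Schwann cells, fell from 9241 and 9808 to 992 and 817 CPM in Schwann cells and from 562 and 783 to 384 and 298 in whole nerve (difference -2.42 ± 0.34), and Cacnb3, a calcium channel subunit, was opposite (3.03 ± 0.27). Of 34 cytoskeletal genes 10 effects were higher and 6 lower (11.7% and 14.6% of all genes, list median 0.33). Nes, the intermediate filament nestin, rose in Schwann cells from 168 and 202 to 983 and 1191 CPM and had 689.8 and 655 before crush and 550.2 and 560.2 at day 7 in whole nerve, and Tubb4a, a tubulin, was opposite at 2.61 ± 0.24, with the reservation that tubulin copies share reads. Of 47 genes of TGF-beta, BMP, Wnt, Hedgehog and Notch signaling 6 effects were higher and 15 lower (11.7% and 14.6% of all genes). Their median was -0.74, or -0.56 with floor genes at their bounds. Lgr5, the receptor of R-spondins, fell from 552 and 515 to 34 and 37.3 CPM in Schwann cells and from 48.6 and 64.5 to 27.2 and 27.4 in whole nerve. Sfrp5, a secreted Wnt antagonist, had 742 and 606 counts in uncrushed Schwann cells and 1 and 0 at day 7.

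Blood vessel growth genes gave 3 higher and 5 lower effects of 22 (11.7% and 14.6% of all genes). Their median was -0.84, or -0.47 with floor genes at their bounds. Nrp2, a receptor for semaphorins and VEGF, was opposite. It stood at 671 and 617 before crush and 197 and 195 CPM at day 7 in Schwann cells. In whole nerve it had 131 and 146 before crush and 238 and 200.1 at day 7. Of 25 lysosomal genes 13 rose in Schwann cells and 15 in whole nerve (22.8% and 16.9% of all genes). Effects were higher in 5 and lower in 4 (11.7% and 14.6% of all genes). The median of 0.11 ranged from -0.14 to 0.23 over scalings. Lipa, the lysosomal acid lipase that frees cholesterol from its esters, rose from 18.6 and 16.4 to 115 and 148 CPM in Schwann cells and from 31.8 and 35.9 to 92.4 and 105 in whole nerve (difference 1.36 ± 0.17). Among the markers of other cell types, 2 of 11 endothelial, 4 of 9 pericyte and 1 of 6 perineurial markers had lower effects in Schwann cells and 0 had higher ones, against 14.6% lower and 11.7% higher over all genes. The endothelial count ran from 1 to 5 over the alternatives (1 without replicate 1 of either Schwann cell group or without uncrushed whole nerve replicate 2, 5 with no filter on low counts). Further, axon markers gave 2 higher and 1 lower of 8, Schwann cell markers 3 higher and 5 lower of 12, and leukocyte and fat, muscle and blood markers 0 of 8 and 0 of 12.

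The other days of the same series used the same uncrushed libraries, so their values stand beside those of day 7 as a description. The difference passed the test in 26.1% of genes at day 3 and 27.6% at day 5, against 26.2% at day 7. Opposite effects were found in 3.21% of genes at day 3 and 3.11% at day 5. For Irf1 the log2 differences at days 3, 5 and 7 were -4.21, -3.86 and -3.91. Fos gave -4.04, -3.75 and -3.70, and Socs3 -5.95, -4.44 and -3.86. For COX1 the differences were 2.43, 1.71 and 1.65, and for Mbp 2.71, 2.60 and 2.00. Pmp2 changed class over the days, since its Schwann cell effect was -1.40 at day 3, -0.07 at day 5 and 0.72 at day 7, while its whole nerve effects were -5.17, -4.22 and -3.18. Gfap had whole nerve effects of -0.04 at day 3, 0.56 at day 5 and 0.56 at day 7, beside Schwann cell effects of -1.85, -1.86 and -2.43.

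A permutation test (exact, two-sided) on groups of 2 has 0.333 as its smallest p, so each call rests on the spread estimated over all genes and libraries. On simulated counts of this comparison the test recovered 75 of 100 genes changed 4-fold and 35 of 100 changed 2-fold. Of its 117 calls 7 were unchanged genes. The simulation changed only 200 of 16652 genes, all above a minimum count, whereas 4414 genes passed in the data. These rates therefore need not hold for the data.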

How the data were processed

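RNA of purified Schwann cells and of whole sciatic nerve was sequenced after amplification of the cDNA (Ovation RNA-seq V2), without molecular identifiers. The authors used STAR with the build Rnor_6.0 for alignment and RSEM for expected counts per gene, deposited without normalization. The deposited FPKM, computed by the authors with RSEM per length and library, was used for sums of markers and for the naming rule. A count matrix and a table of module assignments were deposited as well and were not used. The number of unused columns of per-sample values was 0.

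Expected counts were rounded and tested with edgeR 4.0.16 (quasi-likelihood, robust) in R 4.3.3 after TMM scaling and filterByExpr, in 1 fit of 16 libraries, with Benjamini-Hochberg adjustment at 0.05 over 16829 genes. SE is the log2 value divided by the square root of F. Rn18s, the 18S ribosomal RNA gene, took 1.59% to 4.55% of counts. A gene was at the floor of a group at 3 counts or fewer in both libraries, which covers counting error only. Alternatives were other scalings, filters, a 2-fold threshold, a replicate block, the 8 libraries alone, DESeq2 1.42.0 and leaving out each library. The test was first run on simulated counts with known changes.

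The contrast, the 27 function and 9 marker lists and the tests were chosen with earlier results of these data known. Genes were named by a rule. With a mean FPKM of at least 5 in a group, no group at the floor and separated libraries in each preparation, it takes the 8 opposite genes of each sign with the largest difference. With the same FPKM and floor it takes the 5 other called genes of each sign. Of each function list it takes the opposite members and up to 4 other called members, and markers may be named. Some genes that the rule takes are not reported here. Promoters are from RefSeq on GRCr8, matched by symbol (11233 of 16829 genes), because no genome of Rnor_6.0 was used here. Gene symbols are those of the files. Reads of near-copies (C4a and C4b, the Abca8 group, tubulins, Gapdh, RT1 genes) and of overlapping genes may be divided between them. Plots were drawn with matplotlib.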

Additional observations from a re-analysis of the deposited data

Results flagged for a closer look

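The day 7 effect of crush differed between Schwann cells and whole nerve in 4414 genes by the test of the difference itself (edgeR quasi-likelihood, adjusted p below 0.05). The following values are log2 differences of the effect, Schwann cells minus whole nerve.

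Among genes that rose in Schwann cells and fell in whole nerve, the difference was 5.15 for Bcat1, 5.02 for Ndp, 4.29 for RGD1310110 and 3.90 for Pmp2. It was 3.88 for Adamtsl1, 3.53 for Dusp14 and 3.31 for Ralgps2. Among genes that fell in Schwann cells and rose in whole nerve, it was -6.12 for Fcgr2b, -6.05 for Irf8, -5.29 for LOC103689965 and -5.28 for Osmr. The remaining values of that class were -5.22 for C4a, -5.19 for Tlr2, -5.11 for Cp and -5.08 for Cxcl10.

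Of the other genes with a higher effect in Schwann cells, the values were 5.85 for Aldh1a2, 5.18 for Angpt1, 4.79 for Tub, 4.59 for LOC103689954 and 4.45 for Fzd6. Of those with a lower effect, they were -6.00 for Abca8, -5.73 for Apoc1, -5.48 for Abca8a, -5.21 for Abca9 and -5.18 for Mfap5. Leaving out 1 library that had the only counts of a group moved the value to -11.33 for Fcgr2b, -9.94 for LOC103689965, 10.19 for Aldh1a2 and 10.30 for Angpt1. Groups of 2 libraries were too small for a check of single libraries that stand apart.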

How the results depend on the processing

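Leaving out each library in turn gave 3533 to 4390 genes with a different effect, 1545 to 2058 higher and 1955 to 2332 lower, with 150 to 232 genes up in Schwann cells and down in whole nerve and 230 to 317 with the reverse. The lone library of such a group is assumed to vary like the others. Against a 2-fold difference in place of 0, 901 genes passed, 319 higher and 582 lower, with 97 and 188 opposite. Library totals without TMM, a choice made after seeing the data, gave 4970 genes, 1155 higher and 3815 lower, with 111 and 699 opposite. These counts over all genes stayed within 1.5 times under the other scalings and filters tried, in the 8 libraries alone and with DESeq2 (4248 genes), but counts of lower marker genes moved more, from 1 to 6 for macrophages, 3 to 10 for fibroblasts and 2 to 5 for endothelial cells with no filter on low counts. Deviations between replicates 1 and 2 were barely correlated between groups (-0.0402 to 0.0183), which cannot show whether samples were paired. A replicate block gave 4343 genes. Of 203 named genes 0 changed sign under any alternative, and 184 passed under each one except the 2-fold threshold and those that drop the gene. Depth limits genes with few counts at day 7 in Schwann cells, such as Fcgr2b, Irf8 and Tlr2.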

Other observations

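Some matrix and protease genes of the function lists that were not described above also had opposite effects. The protease list as a whole was even, with 6 higher and 7 lower of 24. What part fibroblast RNA has in these values was not tested. Mmp2, gelatinase A, fell from 20.2 and 13.8 to 11.7 and 10.1 CPM in Schwann cells and rose from 162 and 181 to 279.8 and 269.9 in whole nerve (difference -1.32 ± 0.22). Mmp14, the membrane protease that activates it, did the reverse, from 60.8 and 63.5 to 117 and 106 CPM in Schwann cells and from 127 and 143 to 76.9 and 98.7 in whole nerve (difference 1.46 ± 0.16). Thbs1, thrombospondin 1, was at 4.4 and 4.53 before crush and 1.6 and 1.45 CPM at day 7 in Schwann cells and 20.1 and 22.7 before crush and 52.3 and 65.3 at day 7 in whole nerve (difference -3.00 ± 0.44). Itga4, an integrin that binds fibronectin, fell from 151 and 145 to 78.8 and 87.8 CPM in Schwann cells and rose from 25.1 and 28.5 to 45.2 and 49.9 in whole nerve.

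The values of Col1a2, a chain of type I collagen, did not repeat within groups. Its expected counts were 14941 and 687 in the 2 uncrushed Schwann cell libraries, 1775 and 6679 at day 7, 1.62 and 0 in uncrushed whole nerve and 2748 and 16748 in whole nerve at day 7. Col1a1, its partner chain, had 119381 and 104943 expected counts in uncrushed whole nerve. No fold is given for Col1a2, which did not pass the test of the difference (adjusted p = 0.0704, edgeR).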
